A study of Homo sapiens with 8 samples.

Results

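RUNX1T1, CD34, KIT, FLT3, WT1, TRH, POU4F1, MEIS1, PROM1 and CD33 mark leukaemic stem cells, blood progenitors or leukaemias that carry the RUNX1-RUNX1T1 fusion. Their levels were followed in the acute myeloid leukaemia lines HL60 and Kasumi-1. The 10 genes were taken by symbol from the authors' table of 25593 rows, and each matched 1 row. RNA sequencing libraries formed 4 groups of 2, each with a replicate 1 and a replicate 2: HL60 with 100 nM cinobufagin for 24 h, HL60 left untreated, Kasumi-1 with 100 nM cinobufagin for 24 h, and Kasumi-1 left untreated. Cinobufagin is a steroid of toad venom that blocks the sodium pump. No vehicle is named for the untreated cells. Kasumi-1 comes from a leukaemia with the fusion and HL60 from one without it, so each type is represented by 1 line. The media held different shares of fetal bovine serum, so the line and its medium cannot be told apart. Whether the replicates were grown as separate cultures is not in the labels; the p-values therefore reflect the variation among these 8 libraries, which may be technical.

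The fusion joins the DNA-binding part of RUNX1, a regulator of blood formation, to RUNX1T1, a protein that recruits repressor complexes, and so alters the genes that RUNX1 normally controls. Early blood progenitors carry the sialomucin CD34 and the receptor tyrosine kinases KIT and FLT3, which pass on growth signals from stem cell factor and FLT3 ligand. CD33, a sialic acid receptor, appears as progenitors commit to the myeloid lineage, and WT1 and MEIS1 are transcription factors often high in acute myeloid leukaemia.

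Values are FPKM, fragments scaled to gene length and to the library's mapped fragments, and group values are means ± SD of 2 libraries. Changes are differences of log2(FPKM + 1), cinobufagin minus untreated, tested with limma over the 12511 genes that reached 1 FPKM in 2 or more libraries. A change is called where the Benjamini-Hochberg adjusted p lies under 0.05. This scale understates the change of genes at low values. Of the 10 genes, 8 were tested, and MEIS1 and PROM1 were too low. In bulk RNA, fewer cells that express a gene and less of its RNA per cell cannot be told apart.

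The libraries had 10623 to 11371 genes at FPKM of at least 1, and relative depth, set to 1 in untreated HL60 replicate 1, ranged from 0.785 (treated Kasumi-1 replicate 1) to 1.064 (untreated Kasumi-1 replicate 2). Replicates correlated at Pearson's r of 0.9976 to 0.9981 across genes, leaving out short RNAs and repeated symbols. SNORD50A, a short RNA, was listed at 0 in every replicate 1 and at 45596 to 748781 FPKM in every replicate 2. All 12 myeloid identity genes, among them MPO and PRTN3 of neutrophil granules, passed the low-value filter. Their summed level was 1810 to 2010 FPKM in treated HL60, 5770 to 5810 in untreated HL60, 13900 to 14400 in treated Kasumi-1 and 10700 to 11000 in untreated Kasumi-1. Of the 12, 9 were called lower in treated HL60 and 3 higher (LYZ, ITGAM and SPI1). In treated Kasumi-1, 9 were called higher and 1 lower. Over all genes, 36.0% were called higher and 37.6% lower in HL60, and 10.1% higher and 16.2% lower in Kasumi-1.

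RUNX1T1, the fusion partner, was measured in Kasumi-1 and listed at 0 in all 4 HL60 libraries. It stood at 16.1 and 19.2 FPKM in treated Kasumi-1, against 17.4 and 20.8 FPKM in untreated Kasumi-1. The groups overlapped, and each replicate 1 was below its replicate 2. The log2 change was −0.10 (SE 0.11, 95% interval −0.37 to 0.17, limma adjusted p 0.543), with 92.9% of the untreated level within replicate 1 and 92.5% within replicate 2, and means of 17.7 ± 2.2 FPKM in treated and 19.1 ± 2.4 FPKM in untreated Kasumi-1. Fusion and normal RUNX1T1 transcripts would both fall on this symbol, and the deposited gene row does not separate them. RUNX1, whose start the fusion uses, averaged 48.9 FPKM in treated and 48.2 FPKM in untreated Kasumi-1 (log2 change 0.02, limma adjusted p 0.917).

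TRH, the precursor of thyrotropin-releasing hormone and a gene reported as high in leukaemias with the fusion, rose in Kasumi-1. Its level was 147 and 138 FPKM with cinobufagin, against 90.4 and 87.5 FPKM in untreated cells, with no overlap. The rise was 1.60-fold in means (log2 change 0.67, SE 0.06, limma adjusted p 0.00163). Among all rows ordered by level, TRH stood at rank 500 in treated and rank 819 in untreated Kasumi-1. HL60 listed it at 0 in all 4 libraries. TRHR, the hormone's receptor, chosen after its values were seen, was listed at 0 in all 8 libraries.

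POU4F1, a POU-domain transcription factor of sensory neurons that is also reported as high with the fusion, was highest in treated HL60, a line without it. HL60 held 2.02 and 2.12 FPKM with cinobufagin, against 0.494 and 0.376 FPKM untreated. The treated mean was 4.75-fold the untreated one, a log2 change of 1.10, or 2.03 with a pseudocount of 0.1. POU4F1 passed the filter only through the treated HL60 libraries, so the filtered test was bound to favour a difference and its p is not given for HL60. With no filter on low values, the limma adjusted p was 3.49e-05. Kasumi-1 held 0.137 and 0.206 FPKM with cinobufagin, against 0.240 and 0.189 FPKM untreated, and these groups overlapped (log2 change −0.05, 95% interval −0.23 to 0.12, limma adjusted p 0.645).

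**Figure D1:**
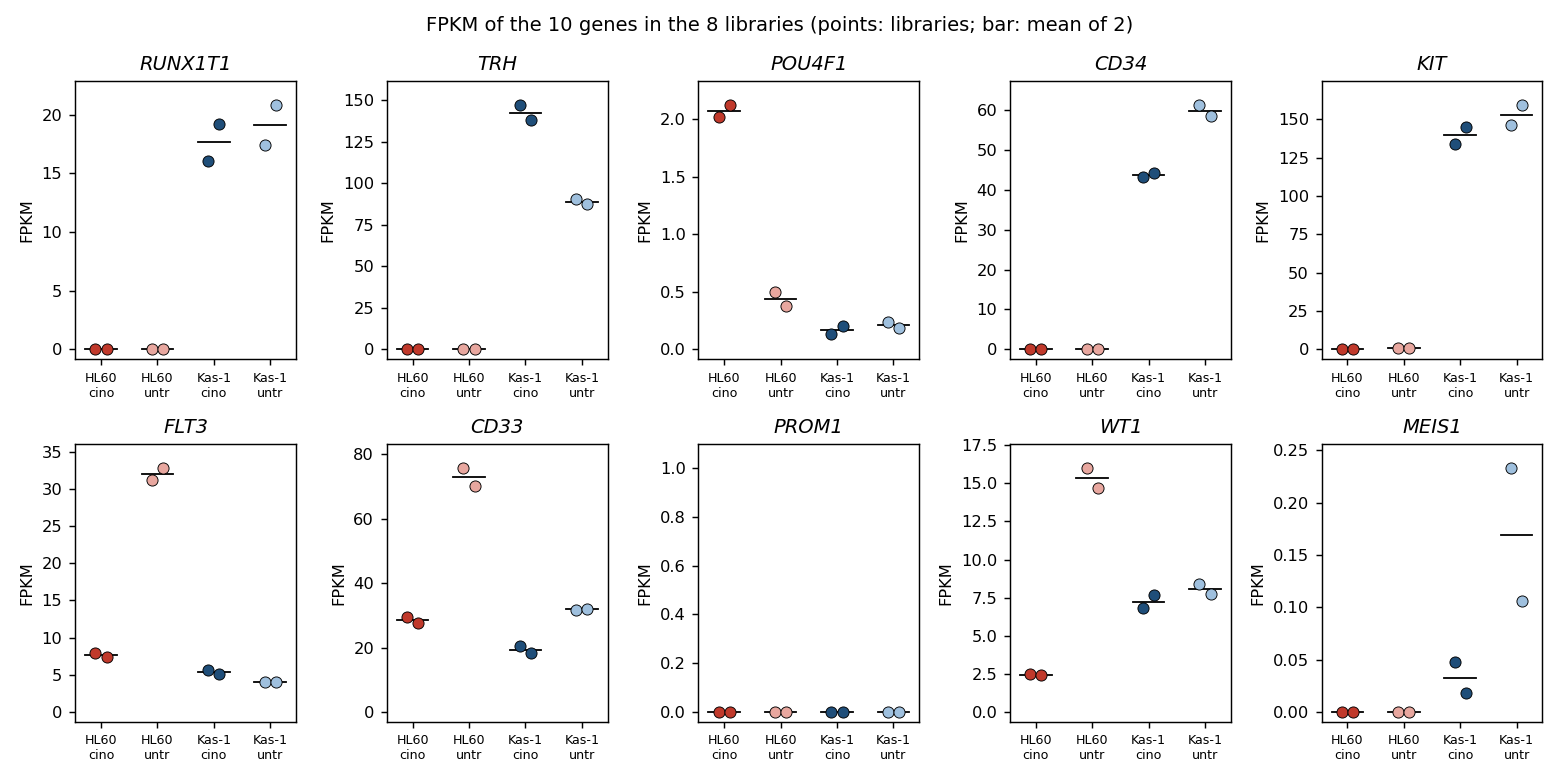
FPKM of the 10 genes in every library, 1 panel per gene, with treated cells left of untreated cells within each line; points are libraries and bars are group means. FLT3, WT1 and CD33 are lower in treated than in untreated HL60, TRH is higher and CD34 lower in treated than in untreated Kasumi-1, and PROM1 is at 0 throughout.

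CD34, the progenitor sialomucin, fell in Kasumi-1. It measured 43.3 and 44.3 FPKM with cinobufagin, against 61.2 and 58.5 FPKM untreated, so both treated libraries were below both untreated ones. The treated mean was 73.2% of the untreated one (log2 change −0.44, SE 0.06, limma adjusted p 0.00422). In HL60 CD34 was listed at 0 in all 4 libraries.

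PROM1, which encodes the stem cell surface protein CD133, was listed at 0 in all 8 libraries. A listed 0 is not evidence that a gene is silent, since the read counts behind it were not given in the sources used here.

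KIT, the receptor for stem cell factor, was among the most abundant rows of Kasumi-1, at rank 510 with cinobufagin and rank 481 untreated. It measured 134 and 145 FPKM in treated Kasumi-1, against 146 and 159 FPKM in untreated Kasumi-1. The treated libraries lay just below the untreated ones, and the difference was not called (log2 change −0.13, SE 0.09, 95% interval −0.35 to 0.10, limma adjusted p 0.366). HL60 held little KIT, 0.270 and 0.302 FPKM with cinobufagin, against 0.697 and 0.995 FPKM untreated. That was a fall to 33.8% of the untreated mean (log2 change −0.52, SE 0.09, limma adjusted p 0.00218), between low levels. The size depends on the scale: it was −1.28 with a pseudocount of 0.1 and −0.34 after quantile normalization, called in both.

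FLT3, the receptor for FLT3 ligand, changed in opposite directions. In HL60 it measured 7.92 and 7.40 FPKM with cinobufagin, against 31.2 and 32.8 FPKM untreated, a fall to 23.9% (log2 change −1.93, SE 0.07, limma adjusted p 1.25e-06). In Kasumi-1 it measured 5.59 and 5.12 FPKM with cinobufagin, against 3.97 and 4.0 FPKM untreated, a 1.34-fold rise (log2 change 0.35, SE 0.07, limma adjusted p 0.0134). The Kasumi-1 rise was no longer called when untreated replicate 1 (adjusted p 0.0591), untreated replicate 2 (0.0562) or treated replicate 1 (0.0612) was left out, or when Kasumi-1 was fitted alone (0.0786). The fall in HL60 was called under all 17 alternatives tried.

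CD33, the myeloid sialic acid receptor and an antibody target in this leukaemia, fell in both lines. HL60 held 29.4 and 27.5 FPKM with cinobufagin, against 75.7 and 70.3 FPKM untreated (log2 change −1.33, SE 0.07, limma adjusted p 6e-06). Kasumi-1 held 20.4 and 18.3 FPKM with cinobufagin, against 31.8 and 32.0 FPKM untreated (log2 change −0.69, SE 0.07, limma adjusted p 0.00225). The treated means were 39.0% of the untreated mean in HL60 and 60.7% in Kasumi-1, and no treated library reached an untreated one in either line. CD33 is also 1 of the 12 myeloid identity genes. Their sum was lower in treated than in untreated HL60, although 3 of the 12 were called higher there. In Kasumi-1 the sum was higher in treated than in untreated cells.

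The 250 bases before the annotated start are shown for FLT3, CD33, CD34 and TRH, the surface genes and the hormone gene that changed in Kasumi-1, from RefSeq on GRCh38.p14. The windows are chr13:28100577-28100826 (minus strand), chr19:51224830-51225079 (plus strand), chr1:207911126-207911375 (minus strand) and chr3:129974470-129974719 (plus strand), each read 5′ to 3′ along the gene. The authors' values were made on hg19, and no position is compared between the builds. Capitals mark letters of the motifs searched on both strands: the E-box CACGTG, the RUNX motifs TGTGGT and TGCGGT, the GC box GGGCGG and the CCAAT box.
FLT3: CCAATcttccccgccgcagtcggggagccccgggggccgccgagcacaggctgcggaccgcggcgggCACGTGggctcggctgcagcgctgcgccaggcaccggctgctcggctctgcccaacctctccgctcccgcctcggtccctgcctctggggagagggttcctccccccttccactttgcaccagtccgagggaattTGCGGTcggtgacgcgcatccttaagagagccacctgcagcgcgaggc
CD33: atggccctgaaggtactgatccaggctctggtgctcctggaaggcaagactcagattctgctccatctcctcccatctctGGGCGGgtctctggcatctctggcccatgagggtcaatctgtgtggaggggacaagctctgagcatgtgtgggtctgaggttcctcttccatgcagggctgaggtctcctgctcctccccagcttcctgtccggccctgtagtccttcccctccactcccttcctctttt
CD34: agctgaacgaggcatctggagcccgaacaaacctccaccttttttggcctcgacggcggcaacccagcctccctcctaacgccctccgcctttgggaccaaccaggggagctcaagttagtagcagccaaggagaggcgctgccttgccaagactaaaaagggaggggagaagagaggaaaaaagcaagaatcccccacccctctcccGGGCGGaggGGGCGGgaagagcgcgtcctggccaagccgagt
TRH: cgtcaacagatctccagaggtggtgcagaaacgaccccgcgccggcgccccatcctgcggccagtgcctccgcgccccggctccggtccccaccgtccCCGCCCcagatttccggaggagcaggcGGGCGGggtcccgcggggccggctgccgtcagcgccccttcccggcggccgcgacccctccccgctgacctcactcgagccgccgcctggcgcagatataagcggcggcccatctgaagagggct
In FLT3 the motif CCAAT began 250 bases before the start, the motif CACGTG 183 and the motif TGCGGT 48 bases before it. CD33 held GGGCGG at 170 bases, CD34 at 42 and 33 bases, and TRH at 152 and 125 bases, the first of these on the opposite strand. Of 35116 windows of 250 bases in the table, 6.34% held CACGTG, 11.0% TGTGGT, 5.84% TGCGGT, 42.6% GGGCGG and 32.0% CCAAT. Of the 10 genes, 9 were in the table, with 15 windows in all. The motif CACGTG and the RUNX motif TGCGGT were each in 1 of the 15, that of FLT3. The other RUNX motif, TGTGGT, was in 1 of the 15, that of MEIS1, and MEIS1 and PROM1 also held a CCAAT box. KIT, WT1 and PROM1 held a GC box. These are matches of letters and not measured binding sites.

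WT1, a zinc finger transcription factor followed as a marker of residual leukaemia, showed the deepest fall of the tested genes in HL60. HL60 held 2.46 and 2.43 FPKM with cinobufagin, against 16.0 and 14.7 FPKM untreated, a treated mean of 16.0% of the untreated one (log2 change −2.24, SE 0.08, limma adjusted p 1.44e-06). Kasumi-1 held 6.80 and 7.67 FPKM with cinobufagin, against 8.41 and 7.76 FPKM untreated. The Kasumi-1 libraries did not overlap but lay close, and the difference was not called (log2 change −0.14, 95% interval −0.34 to 0.05, limma adjusted p 0.242). WT1-AS, the antisense neighbour of WT1, chosen after its values were seen, held 0.624 and 0.921 FPKM in treated HL60, against 4.73 and 4.30 FPKM in untreated HL60 (log2 change −1.64, limma adjusted p 2.93e-05). With the strand setting of the quantification not given in the sources used here, reads of this pair cannot be told apart.

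MEIS1, the homeobox partner of HOX and PBX proteins, was listed at 0 in all HL60 libraries. Kasumi-1 held 0.0476 and 0.0179 FPKM with cinobufagin, against 0.233 and 0.106 FPKM untreated. These levels were under the filter and were not tested.

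**Figure D2:**
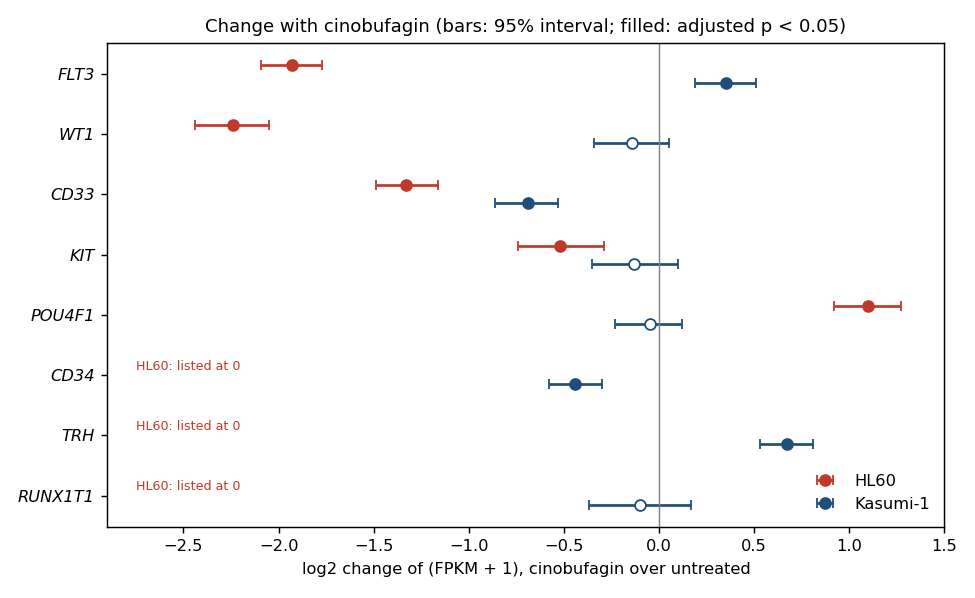
Change of log2(FPKM + 1), cinobufagin over untreated, for the 8 tested genes; bars are 95% intervals and filled points have a limma adjusted p under 0.05. In HL60 FLT3, WT1, CD33 and KIT lie left of 0 and POU4F1 right of it. In Kasumi-1 TRH and FLT3 lie right of 0 and CD33 and CD34 left. POU4F1 passed the filter only through treated HL60, so its filled HL60 point is a description.

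In HL60, 4 of the 8 tested genes fell (FLT3, WT1, CD33 and KIT), and 3 were listed at 0 in that line. The remaining gene, POU4F1, was called higher but entered the test only through its treated HL60 libraries, so it is not read against the share of all genes. Over all 12511 genes, 36.0% were called higher and 37.6% lower in treated HL60, so most tested genes changed there. In Kasumi-1, 2 rose (TRH and FLT3) and 2 fell (CD34 and CD33), and RUNX1T1, KIT, WT1 and POU4F1 were not called. Over all genes, 10.1% were called higher and 16.2% lower in treated Kasumi-1, or 1266 and 2026 genes. Leaving out any 1 Kasumi-1 library brought these to between 635 and 741 rises and between 1019 and 1314 falls. Among all Kasumi-1 calls, 38.5% were rises, against 51.7% after rescaling by the median ratio and 48.3% after quantile normalization. The median log2 change of all genes was −0.01 in HL60 and −0.04 in Kasumi-1.

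Of the 5 genes with values in both lines, 4 passed the filter through more than the treated HL60 libraries. The difference between their cinobufagin changes was called in all 4. The genes had been chosen with earlier results of these data known, so this share is a description and not an unbiased count. KIT passed the filter only through its Kasumi-1 libraries. The change of KIT, FLT3, WT1 and CD33 was more positive in Kasumi-1 than in HL60, where 30.1% of all genes were called in that direction. The difference of log2 changes, Kasumi-1 minus HL60, was 2.28 for FLT3 (SE 0.09, limma adjusted p 8.63e-06) and 2.1 for WT1 (SE 0.11, limma adjusted p 2.2e-05). For CD33 it was 0.63 (SE 0.10, limma adjusted p 0.00158), a smaller fall in Kasumi-1 than in HL60. The KIT difference of 0.39 (SE 0.13, limma adjusted p 0.0383) was lost with no filter (0.0605), after quantile normalization (0.183) and when any library other than untreated HL60 replicate 1 or untreated Kasumi-1 replicate 2 was left out (0.0518 to 0.115); it was 1.15 with a pseudocount of 0.1. For POU4F1, selected through treated HL60, the difference was −1.15, or −2.24 with a pseudocount of 0.1, and the limma adjusted p with no filter was 0.000239. Over all genes, 33.1% were called in that direction.

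In untreated cells, KIT was the sole gene of these 5 that was higher in Kasumi-1 than in HL60. It was 180-fold higher in untreated Kasumi-1 (log2 difference 6.38, SE 0.09). KIT passed the filter only through its Kasumi-1 libraries, so this test was bound to favour a difference and its p is not given. FLT3, CD33, WT1 and POU4F1 were lower in untreated Kasumi-1 than in untreated HL60, with log2 differences of −2.73, −1.17, −0.84 and −0.24 and limma adjusted p of 2.43e-07, 1.02e-05, 0.000106 and 0.0225. The POU4F1 difference was not called without untreated HL60 replicate 1 (0.117) or untreated Kasumi-1 replicate 2 (0.0938), and was −0.76 with a pseudocount of 0.1 and −0.50 after quantile normalization. Over all genes, 35.9% were called higher and 33.8% lower in untreated Kasumi-1.

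The ratio between the lines differed with cinobufagin. The ratio of Kasumi-1 to HL60 means for WT1 was 2.96 in treated cells and 0.528 in untreated cells, so the order of the lines turned round. For FLT3 the ratio was 0.699 in treated and 0.124 in untreated cells, and for CD33 it was 0.680 in treated and 0.437 in untreated cells. For KIT the ratio was 487 in treated and 180 in untreated cells, with HL60 under 1 FPKM throughout. POU4F1 went the other way, with a ratio of 0.0831 in treated and 0.493 in untreated cells. CD34, TRH and RUNX1T1 were listed at 0 in HL60, so no ratio was formed.

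**Figure D3:**
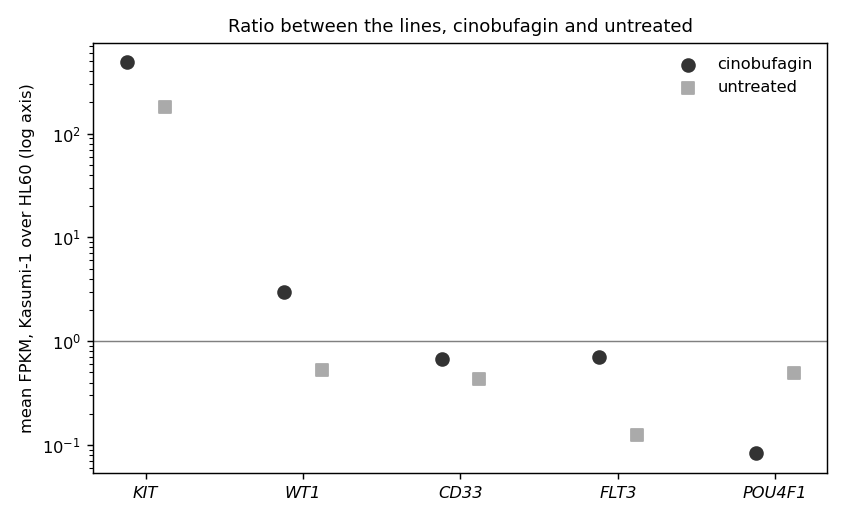
Ratio of mean FPKM, Kasumi-1 over HL60, on a log axis for the 5 genes with values in both lines; circles are treated and squares untreated cells. WT1 crosses the line of equal levels, at 2.96 treated and 0.528 untreated, FLT3 and CD33 lie nearer to it treated than untreated, and POU4F1 lies farther from it treated (0.0831) than untreated (0.493).

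Ordered by level on the FPKM scale, treated Kasumi-1 held TRH (142 ± 6.1), KIT (139 ± 7.8), CD34 (43.8 ± 0.67), CD33 (19.4 ± 1.4), RUNX1T1 (17.7 ± 2.2), WT1 (7.24 ± 0.62), FLT3 (5.36 ± 0.33), POU4F1 (0.172 ± 0.049) and MEIS1 (0.0328 ± 0.021). TRH and KIT overlapped there, as did CD33 and RUNX1T1. Untreated Kasumi-1 held KIT (152 ± 9.5), TRH (89.0 ± 2.1), CD34 (59.8 ± 1.9), CD33 (31.9 ± 0.1), RUNX1T1 (19.1 ± 2.4), WT1 (8.09 ± 0.46), FLT3 (3.99 ± 0.024), POU4F1 (0.215 ± 0.036) and MEIS1 (0.169 ± 0.09), where POU4F1 and MEIS1 overlapped and no other neighbours did. Treated HL60 held CD33 (28.5 ± 1.3), FLT3 (7.66 ± 0.37), WT1 (2.45 ± 0.024), POU4F1 (2.07 ± 0.071) and KIT (0.286 ± 0.022). Untreated HL60 held CD33 (73.0 ± 3.8), FLT3 (32.0 ± 1.2), WT1 (15.3 ± 0.93), KIT (0.846 ± 0.21) and POU4F1 (0.435 ± 0.084). HL60 neighbours did not overlap in either condition.

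The KIT and FLT3 pathway list held 23 tested genes of 24, and 16 rose and 4 fell in HL60, with a median log2 change of 0.77. As the background for this and the lists that follow, 36.0% of all genes rose and 37.6% fell in HL60, and 10.1% rose and 16.2% fell in Kasumi-1. Some genes of these lists passed the filter only through the group where they were high, so their calls were bound to favour a difference. Among them were CD9 and SIGLEC9 in treated HL60, and GFI1B and IKZF2 in untreated HL60. The list counts include such genes and are descriptions. In HL60 the SRC-family kinase LYN averaged 122 ± 1.1 FPKM with cinobufagin and 13.6 ± 0.58 untreated (log2 change 3.08, limma adjusted p 2.48e-07). The adaptor SLA, which dampens receptor signalling, averaged 60.3 ± 3.1 FPKM with cinobufagin and 10.1 ± 0.12 untreated (2.47, adjusted p 3.67e-07). The tyrosine kinase FES averaged 7.98 ± 0.53 with cinobufagin and 58.1 ± 1.2 untreated (−2.72, adjusted p 2.48e-07), and STAT5A, a transcription factor activated by FLT3 and KIT, fell by 1.37 on the log2 scale (adjusted p 1.25e-06). In Kasumi-1 the same list had 6 rises and 4 falls with a median of 0.00. There FES averaged 59.1 ± 1.4 FPKM with cinobufagin and 35.9 ± 0.38 untreated (0.71, adjusted p 0.00132), and SHC1, an adaptor to RAS, fell by 0.38 (adjusted p 0.00605, or 0.0503 with Kasumi-1 fitted alone).

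Of the ligands, singled out after their values were seen, KITLG was too low to test. FLT3LG averaged 0.518 ± 0.069 FPKM in treated HL60 and 1.2 ± 0.16 FPKM in untreated HL60 (log2 change −0.53, limma adjusted p 0.00251). It averaged 2.73 ± 0.23 FPKM in treated Kasumi-1 and 1.66 ± 0.25 FPKM in untreated Kasumi-1 (0.49, adjusted p 0.0159), and both changes were called.

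Other progenitor and leukaemic stem cell surface genes, 17 tested of 21, had 11 rises and 1 fall in HL60 and 9 rises and 1 fall in Kasumi-1, against 10.1% of all genes called higher and 16.2% lower in Kasumi-1. Their median log2 change was 0.76 in HL60 and 0.39 in Kasumi-1, with 1 gene at 0 in each line left out. PTPRC, the CD45 phosphatase of blood cells, averaged 124 ± 3.4 FPKM in treated and 25.2 ± 1.1 in untreated HL60, and 23.8 ± 0.65 in treated and 11.7 ± 0.61 in untreated Kasumi-1 (log2 changes 2.25 and 0.96, limma adjusted p 4.7e-07 and 0.000786). IL1RAP, a co-receptor for interleukin 1, averaged 77.9 ± 4.1 FPKM in treated and 6.48 ± 0.21 in untreated HL60 (3.40, adjusted p 1.48e-06). CD93, a surface lectin-like receptor, averaged 3.43 ± 0.32 FPKM in treated and 6.65 ± 1.4 in untreated Kasumi-1 (−0.78, adjusted p 0.00753, or 0.0664 with Kasumi-1 fitted alone). Over the alternatives the list had 8 to 11 rises and 0 to 2 falls in HL60, and 4 to 9 rises and 0 to 1 falls in Kasumi-1.

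The published score of 17 stemness genes, which includes CD34, had 9 tested genes. The counts and medians below take each gene alike. The score itself was not computed, so they do not say whether it rose or fell. In HL60, 1 rose and 7 fell, with a median log2 change of −0.95 without CD34, which was at 0. The riser was EMP1, a membrane protein, at 46.3 ± 0.86 FPKM in treated and 0.234 ± 0.064 in untreated HL60 (log2 change 5.26). EMP1 passed the filter only through its treated HL60 libraries, so its test was bound to favour a rise and its p is not given. In Kasumi-1, 1 rose and 4 fell, with a median of −0.25, and over the alternatives the rises ranged from 0 to 1 and the falls from 2 to 4. ARHGAP22, a regulator of RAC, averaged 4.20 ± 0.46 FPKM in treated and 7.93 ± 0.0014 in untreated Kasumi-1 (−0.78, adjusted p 0.00231). C19orf77 stood at 0.0798 ± 0.0049 FPKM in treated and 3.96 ± 0.20 in untreated HL60 (−2.20, adjusted p 5.11e-06) and at 33.4 ± 3.2 in treated and 21.3 ± 3.0 in untreated Kasumi-1 (0.62, adjusted p 0.0104). The Kasumi-1 rise was not called with that line fitted alone (0.0668) or without its treated replicate 1 (0.0537).

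Stem and progenitor transcription factors, 18 tested of 22, had 5 rises and 9 falls in HL60 and 2 rises and 3 falls in Kasumi-1. SPI1, the myeloid factor PU.1, rose in both lines, to 249 ± 6.8 FPKM in treated HL60 against 149 ± 0.88 in untreated HL60, and to 132 ± 1.4 in treated Kasumi-1 against 78.4 ± 4.4 in untreated Kasumi-1 (log2 change 0.74 in each, limma adjusted p 2.52e-05 and 0.00116). MYB, a factor of progenitor growth, averaged 52.0 ± 0.17 FPKM in treated and 122 ± 2.1 in untreated HL60 (−1.21, adjusted p 1.22e-06), and 119 ± 2.3 in treated and 106 ± 1.2 in untreated Kasumi-1 (0.16, adjusted p 0.0356). The small MYB rise in Kasumi-1 was not called under 10 of the 17 alternatives, among them each library left out in turn. CEBPA, a factor of granulocyte formation, fell in HL60, with 31.2 ± 0.72 FPKM in treated and 141 ± 3.6 in untreated cells (−2.15, adjusted p 3.42e-07). GATA2, a stem cell factor, fell in Kasumi-1, with 6.24 ± 0.27 FPKM in treated and 8.28 ± 0.36 in untreated cells (−0.36, adjusted p 0.00812, or 0.0705 with Kasumi-1 fitted alone). Medians were −0.72 in HL60 without 2 genes at 0, and 0.10 in Kasumi-1 without 1 gene at 0.

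Partners of the fusion protein, all 17 tested, had 8 rises and 5 falls in HL60 and 3 rises and 3 falls in Kasumi-1, with medians of 0.06 and −0.01. The acetyltransferase EP300 averaged 44.1 ± 1.2 FPKM in treated and 12.5 ± 0.86 in untreated HL60 (log2 change 1.74, limma adjusted p 2.66e-06), and RUNX1 averaged 33.4 ± 0.28 in treated and 16.1 ± 1.6 in untreated HL60 (1.01, adjusted p 8.41e-05). In Kasumi-1, the line with the fusion, LYL1 averaged 148 ± 3.4 FPKM in treated and 103 ± 0.67 in untreated cells (0.52, adjusted p 0.00286). The methyltransferase PRMT1 fell by 0.97 in HL60 (adjusted p 5.33e-06) and by 0.34 in Kasumi-1 (adjusted p 0.00554).

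Other genes reported as high in leukaemias with the fusion, 6 tested of 11, had 1 rise and 2 falls in HL60 and 0 rises and 2 falls in Kasumi-1. PRG2, an eosinophil granule protein, averaged 3.41 ± 0.97 FPKM in treated and 13.3 ± 2.0 in untreated Kasumi-1 (log2 change −1.71, limma adjusted p 0.00258), and 1380 ± 210 in treated and 8130 ± 660 in untreated HL60 (−2.57, adjusted p 2.33e-05). IGFBP7, a secreted binder of insulin-like growth factors, fell in HL60 to 1.85 ± 0.31 FPKM in treated cells against 31.0 ± 0.058 in untreated cells (−3.49, adjusted p 4.59e-07). In Kasumi-1 IGFBP7 averaged 87.8 ± 1.5 FPKM treated and 73.3 ± 6.4 untreated, and the difference was not called (0.26, limma adjusted p 0.0783). PRAME, a tumour antigen, rose by 0.76 in HL60 (adjusted p 7.19e-05) and fell by 0.63 in Kasumi-1 (adjusted p 0.00266). PRAME was lower in Kasumi-1, at 1.7 ± 0.19 FPKM treated and 3.17 ± 0.027 untreated. HL60 held 82.3 ± 1.9 FPKM treated and 48.2 ± 2.4 untreated. Medians were −1.25 in HL60 without 2 genes at 0, and −0.21 in Kasumi-1.

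HOX, PBX and menin partners of MEIS1, 12 tested of 25, had 4 rises and 4 falls in HL60 and 1 rise and 2 falls in Kasumi-1, with medians of −0.06 and −0.08. MEN1, which encodes menin, averaged 7.11 ± 0.072 FPKM in treated and 23.8 ± 0.97 in untreated HL60 (log2 change −1.61, limma adjusted p 2.93e-06), and HOXA5 averaged 6.04 ± 0.18 in treated and 8.15 ± 0.16 in untreated Kasumi-1 (−0.38, adjusted p 0.00889, or 0.0592 with Kasumi-1 fitted alone and 0.167 with a pseudocount of 0.1). Paralogs of the 10 genes, 10 tested of 21, had 4 rises and 2 falls in HL60 and 0 rises and 4 falls in Kasumi-1, with medians of 0.00 and −0.26. In HL60, where CD33 fell, its relative SIGLEC5 averaged 22.5 ± 0.99 FPKM in treated and 6.35 ± 0.046 in untreated HL60 (1.68, adjusted p 2.66e-06). SIGLEC10 also rose, with 7.58 ± 0.73 FPKM in treated and 4.35 ± 0.29 in untreated HL60 (0.68, limma adjusted p 0.00047). SIGLEC9 was higher too, at 1.43 ± 0.41 FPKM in treated and 0.241 ± 0.027 in untreated HL60. Another relative, SIGLEC12, fell as CD33 did, with 0.219 ± 0.034 FPKM in treated and 1.22 ± 0.13 in untreated HL60 (−0.86, adjusted p 5.39e-05). In Kasumi-1 SIGLEC5 fell by 0.28 (adjusted p 0.0338), a call lost under 10 of the 17 alternatives. CBFA2T3, a relative of RUNX1T1, averaged 2.48 ± 0.23 FPKM in treated and 6.76 ± 0.065 in untreated HL60 (−1.16, adjusted p 5.32e-05).

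Counts over these lists moved with the 17 alternatives. In Kasumi-1 the pathway list ranged from 3 to 8 rises and 0 to 5 falls, stem and progenitor transcription factors from 1 to 4 rises and 0 to 4 falls, and fusion partners from 1 to 4 in each direction. Falls of HOX and PBX genes and of paralogs each ranged from 0 to 4 in Kasumi-1. In HL60, falls ranged from 3 to 7 for fusion partners and from 2 to 5 for the pathway list.

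**Figure D4:**
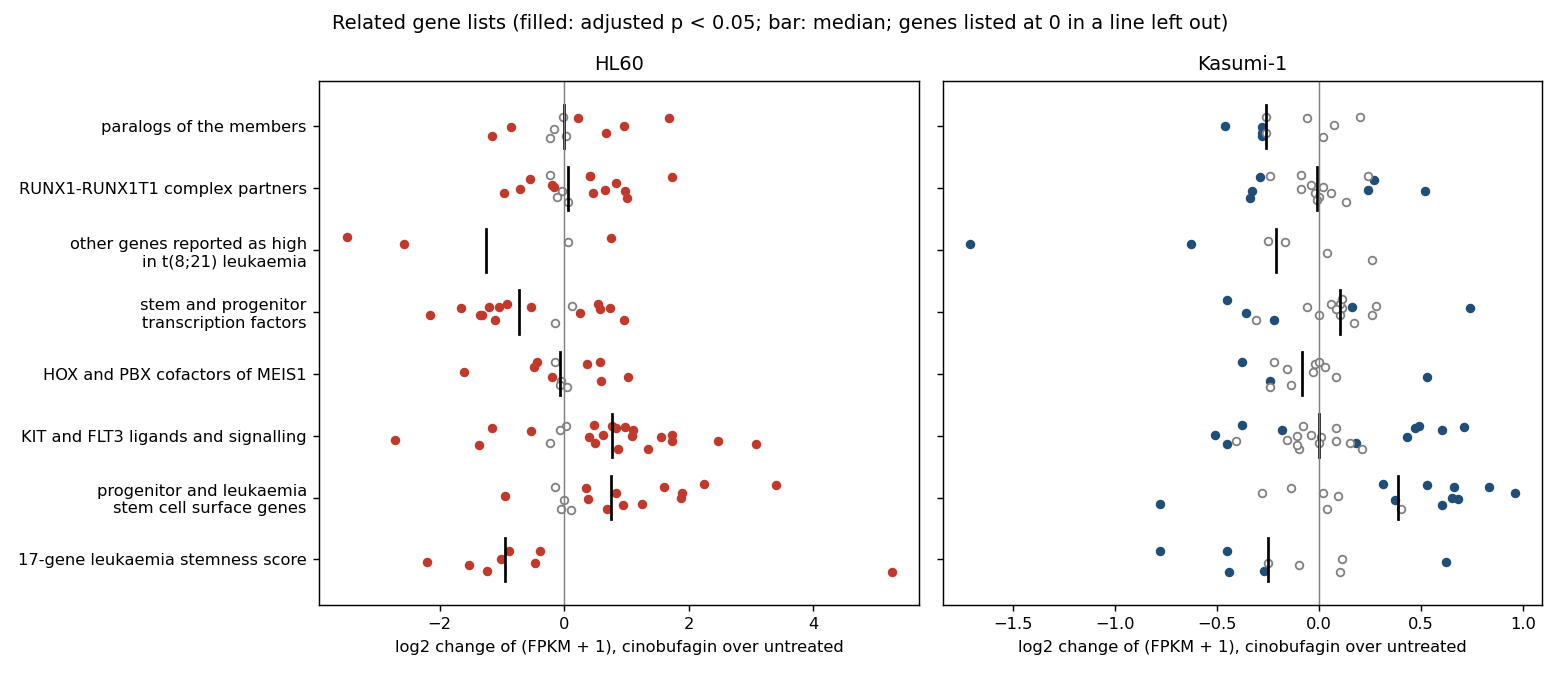
Change of log2(FPKM + 1), cinobufagin over untreated, for tested genes of 8 related lists, with HL60 left and Kasumi-1 right on axes of different range; each point is a gene, filled where the limma adjusted p is under 0.05, and the black bar is the median. Surface genes have medians of 0.76 and 0.39. The genes of the 17-gene score, each taken alike, have medians of −0.95 and −0.25, and the score itself was not computed.

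CD34 is also known from endothelium and KIT from mast cells, so markers of other cell types were listed. Of 10 endothelial markers 2 were tested, and their sum was 248 to 267 FPKM in treated Kasumi-1 and 220 to 249 in untreated Kasumi-1, nearly all EGFL7. In HL60 the endothelial sum was 1.42 to 1.67 FPKM treated and 5.27 to 6.04 untreated. Mast cell markers, where KIT is also high, summed to 4.64 to 4.98 FPKM in treated and 3.80 to 4.22 in untreated Kasumi-1, and to 14.3 to 15.4 in treated and 17.7 to 18.4 in untreated HL60. Erythroid and megakaryocyte markers, 7 of 15 at 0 throughout, summed to at most 8.97 FPKM in any library. B cell markers, 4 of 10 at 0 throughout, summed to 0.783 to 1.12 FPKM in treated HL60. In untreated HL60 their sum was 109 to 129 FPKM, nearly all IGLL1. In Kasumi-1 they summed to 12.4 to 17.2 FPKM treated and 21.9 to 22.9 untreated. T and NK cell markers summed to 109 to 116 FPKM in treated and 105 to 109 in untreated HL60, where NKG7 averaged 93.0 treated and 25.7 untreated and CD4 averaged 17.9 treated and 80.7 untreated, and to 43.8 to 46.3 in treated and 35.7 to 36.1 in untreated Kasumi-1. Fibroblast and epithelial markers summed to at most 0.523 FPKM in HL60, and to 72.7 to 75.7 in treated and 77.3 to 78.6 in untreated Kasumi-1, mostly EPCAM. Their part in the changes of the 10 genes was not tested.

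The genes whose profile lay nearest to each member were found by the root mean squared difference of centred log2(FPKM + 1) values over the 8 libraries. PXN lay nearest to RUNX1T1 (0.0715), with 25.6 ± 0.59 FPKM in treated and 27.5 ± 1.3 in untreated Kasumi-1 and 0.49 in treated and 0.496 in untreated HL60. SLC43A1 lay nearest to WT1 (0.102), with 10.8 ± 0.74 FPKM in treated and 52.8 ± 2.9 in untreated HL60. B7H6 lay nearest to CD33 (0.0981), C10orf58 to CD34 (0.148) and EPCAM to KIT (0.243). PRSS21 was nearest to TRH (0.276) and second nearest to KIT (0.252), and was listed at 0 in HL60 as TRH was. For FLT3 the nearest were FLJ39632 (0.128) and GFI1B (0.164), which was listed at 0 in all Kasumi-1 libraries. The second nearest were GNG2 for RUNX1T1 (0.0989), TUBB6 for CD34 (0.173), FARSA for WT1 (0.127), SPARC for TRH (0.346) and TMEM62 for CD33 (0.104).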

How the data were processed

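Per the labels' protocols, RNA was isolated with an RNeasy kit and made into libraries with a TruSeq Stranded mRNA kit. The submitters' processing notes name bcl2fastq 2.20.0, HISAT2 2.1.0, Cufflinks 2.2.1 and the build hg19. The authors deposited FPKM values per gene and library. With annotation, strand setting, filters and read totals not given in the sources used here, no counting interval was set. Relative depth was read from the steps of values under 0.3 FPKM, against untreated HL60 replicate 1.

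All 8 columns were used. Values were tested as log2(FPKM + 1) with limma 3.58.1 in R 4.3.3, with 1 mean per group, an intensity trend and 4 residual degrees of freedom. The test covered the 12511 genes that reached 1 FPKM in 2 or more libraries and left out 13082. Permuting 2 against 2 libraries has a smallest two-sided p of 0.333, so no permutation was made. The fit was first tested on simulated data.

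The 10 genes and 15 related lists (238 of 240 entries matched) were chosen with earlier results of these data known. Named were all 10 genes, up to 2 genes per direction, line and list with the smallest adjusted p and a mean of 1 FPKM or more where higher, and the 2 nearest profiles of members with a mean FPKM of at least 5 in a group; the text gives a part of them. Alternatives were a pseudocount of 0.1, other filters and scalings, no intensity trend, a replicate block, separate fits and each library left out. Promoter windows came from RefSeq's table on GRCh38.p14.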

Additional observations from a re-analysis of the deposited data

Results flagged for a closer look

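In 4 genes with values in both lines, the cinobufagin change differed between the lines by limma's test of the difference itself. It is given here as the log2 change in Kasumi-1 minus that in HL60. These genes had been chosen with earlier results of these data known. The difference was 2.28 for FLT3 (limma adjusted p 8.63e-06), which fell in HL60 and rose in Kasumi-1. It was 2.1 for WT1 (adjusted p 2.2e-05), 0.63 for CD33 (adjusted p 0.00158) and 0.39 for KIT (adjusted p 0.0383), and of these 4 the KIT call alone was lost under alternatives. POU4F1 also differed by −1.15, but it was tested because of its level in treated HL60, so this value is a description; with no filter on low values its limma adjusted p was 0.000239.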

How the results depend on the processing

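Of 23 results for single genes, 19 kept their direction and side of the threshold under each of the 17 alternatives that gave a value. These include POU4F1 in HL60, the POU4F1 difference between lines and KIT between untreated lines. Both genes passed the filter only through libraries where they were high, so the steadiness of these calls is a description. Of 382 values compared, 16 had another call or another direction. The 4 exceptions were FLT3 in Kasumi-1, the KIT difference between lines, POU4F1 between untreated lines and the direction of RUNX1T1 in Kasumi-1. The RUNX1T1 change, −0.10 and not called, ranged from −0.23 to 0.02 when a library was left out, and was 0.02 without untreated replicate 2 or without treated replicate 1 of Kasumi-1, both of which set libraries of unlike number against each other; within numbers it was −0.10 and −0.11. With a filter at FPKM of at least 5, POU4F1 was not tested, which leaves 0 genes higher in treated HL60 and 0 with a more negative change in Kasumi-1, against 1 each. With Kasumi-1 fitted alone, 398 genes rose and 642 fell over all genes, against 1266 and 2026, and 1 of the 10 genes rose, against 2. Leaving out each library in turn gave 635 to 1018 rises, 1019 to 1723 falls and 1 to 2 of the 10 genes higher in Kasumi-1. Of 60 counts over lists, 106 of 1020 values moved by over 1.5 times. Low FPKM limits POU4F1 in both lines and KIT in HL60.

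With the replicate number as a block, no call on the 10 genes changed. Over all genes 4794 rose and 4993 fell in HL60, against 4505 and 4707 without the block, and 1867 rose and 2882 fell in Kasumi-1, against 1266 and 2026. The labels do not say that the numbers pair libraries. Deviations of same-numbered libraries correlated across genes at r of 0.125 to 0.331, and at 0.272 to 0.434 without short RNAs and repeated symbols.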
